A study of Mus musculus with 35 samples.

Results

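The 10 genes followed here belong to antigen presentation by class II molecules of the major histocompatibility complex (MHC), and they were measured in sorted medullary thymic epithelial cells (mTECs) of the mouse. They are H2-Aa, H2-Ab1 and H2-Eb1 (chains of the class II molecules), H2-DMa and H2-DMb1 (H2-DM), H2-Oa and H2-Ob (H2-DO), Cd74 (the invariant chain), Ctss (cathepsin S) and Ciita (the class II transactivator). The genes were listed by name, and all 16 array probes annotated to these 10 symbols were taken. They stand beside 18090 tested genes and 34083 detected probes in all. Messenger RNA was measured on Illumina mouse bead arrays, on which a probe's brightness stands for the amount of its transcript.

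mTECs display proteins otherwise made in peripheral tissues to developing T cells. They were sorted by flow cytometry into cells positive and negative for 1 such tissue-restricted antigen at a time. Antibodies to the proteins labelled Pdpn, Gp2, Cea1 and Tspan8 defined 4 of the sorts, and reporter mice for Gad1 and Ins2 defined the other 2. Strain, age, reporter allele and the sort gates are not given in the sources used here. Each of the 12 groups had 3 arrays, except Gp2-positive and Ins2-negative cells with 2 usable arrays each, so that 34 arrays entered the comparisons. Arrays of a group are labelled biological replicates, but separate animals are not named, so p-values measure the spread between these samples. How precise a value can be is limited by this small number of arrays. Each positive group was set against the negative group of its own sort, to ask which genes are transcribed together with the antigen.

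MHC class II molecules are pairs of an alpha and a beta chain that carry peptides to the cell surface for CD4 T cells. A new class II molecule binds the invariant chain, which fills its groove and guides it to endosomes. There proteases such as cathepsin S cut the invariant chain down to a short fragment, and H2-DM exchanges this fragment for peptides from the cell's own or engulfed proteins. H2-DO holds H2-DM back. The transactivator Ciita does not bind DNA itself but joins the factors RFX and NF-Y on the X and Y boxes in front of class II genes. In the thymus, mTECs with high class II levels include the mature cells that express Aire, a regulator of tissue-restricted genes.

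The upstream sequences below are shown because Ciita acts on class II genes through such X and Y boxes. They run from 120 to 30 bases before the annotated start, are written 5′ to 3′ and come from the RefSeq promoters of mouse build GRCm38.p6. Capitals mark the letters AGNAAC, 2 further bases of any kind and ATG (resembling the X box), and GATTGG or its reverse complement CCAATC (the core of the Y box), searched on both strands from 250 bases before to 50 after each start, where N is any base. The letters were chosen after the members' promoters had been read.
H2-DMb1 (chr17:34153071-34153161, plus strand): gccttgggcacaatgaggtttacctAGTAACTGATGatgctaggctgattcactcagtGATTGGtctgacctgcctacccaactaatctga
H2-Ob (chr17:34238785-34238875, plus strand): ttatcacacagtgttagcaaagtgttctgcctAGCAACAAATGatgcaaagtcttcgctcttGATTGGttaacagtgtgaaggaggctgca
H2-Eb1 (chr17:34305747-34305837, plus strand): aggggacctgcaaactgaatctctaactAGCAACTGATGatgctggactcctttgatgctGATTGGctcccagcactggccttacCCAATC
H2-Oa (chr17:34092259-34092349, plus strand): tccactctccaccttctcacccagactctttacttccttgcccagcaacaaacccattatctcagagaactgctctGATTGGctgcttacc
H2-Aa (chr17:34287853-34287943, minus strand): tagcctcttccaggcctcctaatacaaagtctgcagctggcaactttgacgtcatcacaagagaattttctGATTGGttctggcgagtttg

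Of the 10 genes, 7 had a promoter entry, and 3 of these (H2-DMb1, H2-Ob and H2-Eb1) held both sets of letters in the same order. The gap between them was 22 bases in H2-DMb1, 19 in H2-Ob and 21 in H2-Eb1. Of all 32851 promoters, 5 (0.0152%) held the first letters followed by the second within 10 to 40 bases on the same strand. The other 2 belonged to H2-Eb2, a further class II beta chain gene, and to Scgb2b20 on chromosome 7. The Y box letters alone stood in 16.1% of all promoters, those of H2-Aa, H2-Oa and H2-DMa among them, and the X box letters in 0.895%. Since the letters were taken from members' promoters, their presence there was fixed by that choice. These matches describe letters and show no binding.

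Class II genes fell in the positive cells of the Gp2, Tspan8, Cea1 and Pdpn sorts, and moved both ways in the Gad1 and Ins2 sorts. A gene was called when its adjusted p passed the threshold of 0.05. In Gp2-positive cells 9 of the 10 genes were lower and none higher, where 39% of all tested genes were called (21% lower, 18% higher), and the median log2 difference of the 10 was -1.24 against -0.02 over all genes. In Tspan8-positive cells 7 were lower and none higher (43% of all genes called, 23.9% lower and 19.1% higher; median -1.10 against -0.02). In Cea1-positive cells 6 were lower and none higher, beside 29% of all genes called, 15.6% lower and 13.4% higher (median -0.42 against -0.04). In Pdpn-positive cells 5 were lower and none higher, beside 37.3% of all genes called, 19.1% lower and 18.2% higher (median -0.29 against 0.00). In Gad1-positive cells 4 were higher and 2 lower, beside 38.4% of all genes called, 19.2% in each direction (median 0.10 against -0.01). Leaving out any 1 array of that sort left 2 to 3 higher and 1 to 2 lower, and median scaling left 1 higher. Under median scaling H2-Aa (-0.45) and Cd74 (-0.36) were called lower there, beside Ciita. In Ins2-positive cells 1 was higher and 2 lower, beside 16.8% and 17.7% (median 0.05 against -0.00), so that the 3 calls among 10 genes lay near the 34.5% of all genes called in either direction. Under median scaling in place of quantile normalization the members' medians were -0.23 in the Gad1 sort and -0.21 in the Ins2 sort, where those of all genes were -0.18 and 0.07. In bulk samples such as these, fewer cells of a type and less RNA per cell cannot be told apart.

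**Figure D1:**
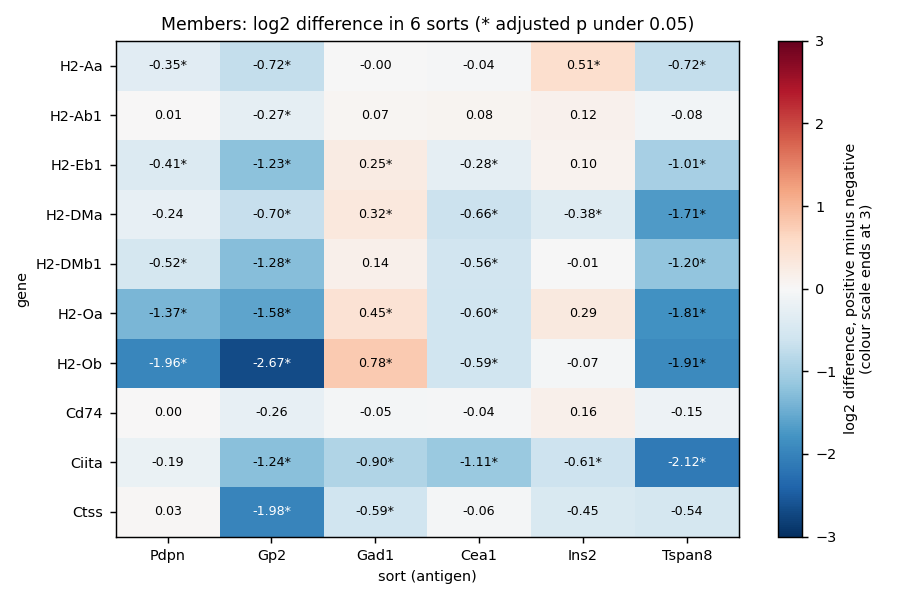
Log2 difference, positive minus negative cells, of the 10 genes (rows) in the 6 sorts (columns), with a star where the adjusted p was under 0.05. Blue cells are lower in positive cells and fill the Gp2 and Tspan8 columns, where H2-Ob reached -2.67 and Ciita -2.12, while the Gad1 column holds H2-Ob at 0.78 beside Ciita at -0.90.

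All 10 genes were detected on all 34 arrays. The arrays of positive and negative cells did not overlap for 9 genes in the Gp2 sort (55.3% of all genes), 9 in the Tspan8 sort (55.9%), 7 in the Pdpn sort (52.3%), and 6 each in the Gad1 (44.3%), Cea1 (37.7%) and Ins2 sorts (49.8%). H2-DMa, H2-Oa and Ciita had no overlap in any of the 6 sorts, a share that was not counted over all genes. Of these, H2-DMa and Ciita were not called in the Pdpn sort, nor H2-Oa in the Ins2 sort.

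**Figure D2:**
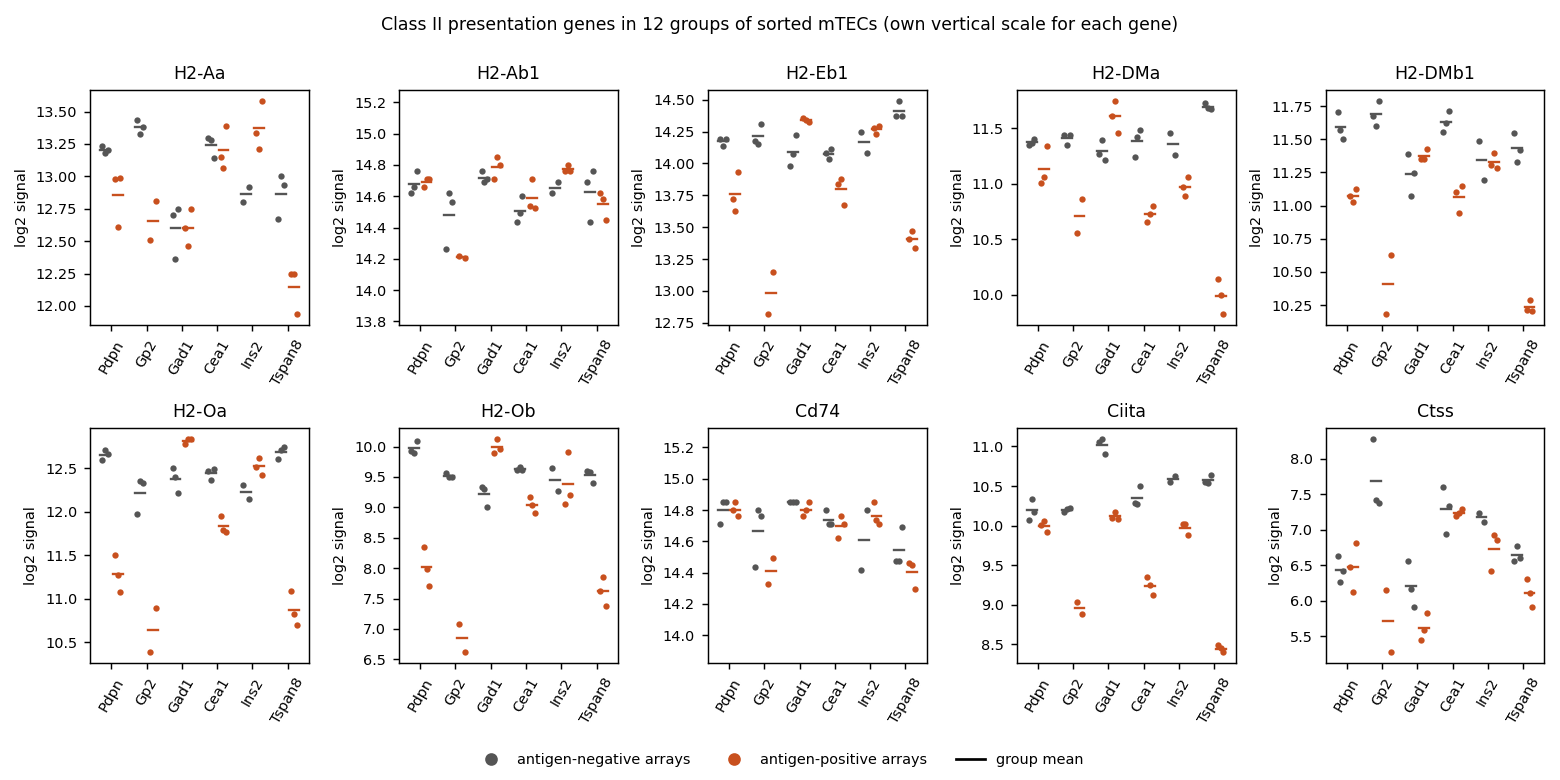
Normalized log2 signal (vertical axis, own scale for each gene) of the 10 genes on each array of the 6 sorts, with negative cells in grey, positive cells in orange and a line at each group mean. The Gp2- and Tspan8-positive arrays lie lowest for most genes, the Cd74 and H2-Ab1 panels are nearly flat, and the Gad1-negative arrays lie highest for Ciita.

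Among the class II chains, H2-Eb1, a beta chain, fell in 4 sorts and H2-Aa, an alpha chain, in 3. The log2 signal of H2-Eb1 was 14.18, 14.15 and 14.31 on the Gp2-negative arrays and 12.82 and 13.15 on the Gp2-positive arrays. It was 14.37, 14.49 and 14.37 on the Tspan8-negative arrays and 13.41, 13.47 and 13.34 on the Tspan8-positive arrays. No positive array of either sort reached a negative one. The difference of H2-Eb1 was 2.35-fold in the Gp2 sort (95% interval 2.03 to 2.72, adjusted p = 7.6e-12) and 2.01-fold in the Tspan8 sort (1.76 to 2.29, adjusted p = 3.5e-11), lower in positive cells both times. In the Pdpn sort H2-Eb1 fell by 0.41 on the log2 scale (SE 0.09, adjusted p = 0.00047) and in the Cea1 sort by 0.28 (SE 0.09, adjusted p = 0.02). The Cea1 call was lost without any of 3 single arrays, with adjusted p of 0.053 (Cea1-negative replicate 1), 0.064 (Cea1-negative replicate 3) and 0.12 (Cea1-positive replicate 3).

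In Gad1-positive cells H2-Eb1 was 0.25 higher on the log2 scale (SE 0.09, adjusted p = 0.033). This call was lost on leaving out Gad1-negative replicate 1 or 2 or any Gad1-positive array (adjusted p 0.059 to 0.15), and the direction turned under median scaling (-0.22, adjusted p = 0.12). In the Ins2 sort H2-Eb1 passed no threshold (0.10, 95% interval -0.11 to 0.31).

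H2-Aa stood at 13.43, 13.33 and 13.38 on the Gp2-negative arrays and at 12.51 and 12.81 on the Gp2-positive arrays. On the Tspan8 arrays it stood at 12.67, 13.00 and 12.93 in negative and at 12.25, 12.25 and 11.94 in positive cells. The groups did not overlap in either sort, and the fall was alike in size, 0.72 on the log2 scale in both (SE 0.14 and 0.12, adjusted p = 6.4e-05 and 8.8e-06). A difference of 0.35 in the Pdpn sort (lower, adjusted p = 0.025) was lost without Pdpn-negative replicate 1 (adjusted p = 0.071), Pdpn-negative replicate 3 (0.055) or Pdpn-positive replicate 2 (0.22).

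H2-Aa was the only gene of the 10 called higher in Ins2-positive cells. Its log2 signal was 12.80 and 12.92 on the Ins2-negative arrays and 13.34, 13.21 and 13.58 on the Ins2-positive arrays, with no overlap. The difference of 0.51 (SE 0.14, adjusted p = 0.0035) shrank to 0.12 under median scaling (adjusted p = 0.55) and was lost without Ins2-negative replicate 1 (0.46, adjusted p = 0.054). In the Gad1 and Cea1 sorts H2-Aa differed by -0.00 (95% interval -0.25 to 0.25) and -0.04 (-0.29 to 0.21), but under median scaling it was lower in Gad1-positive cells (-0.45, adjusted p = 0.007).

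H2-Ab1, the other beta chain, and Cd74 were each represented by the brightest of 3 probes, and these representatives were nearly flat. The brightest H2-Ab1 probe held ranks 1 to 37 of its array and the brightest Cd74 probe ranks 1 to 30. Quantile normalization gives the same value to the same rank on every array, so that the highest possible log2 signal was 14.85 and such probes had little room to rise. Cd74 stood at that highest value on all 3 Gad1-negative arrays. The second H2-Ab1 probe also stood high on the Gp2-negative arrays (14.58, 14.49 and 14.52) but at 13.03 and 12.98 on the Gp2-positive arrays. Why the representatives were nearly flat was not tested. The H2-Ab1 representative passed only in the Gp2 sort (-0.27, adjusted p = 0.041). It stood at 14.26, 14.62 and 14.56 in negative and at 14.22 and 14.21 in positive cells. That call was lost without Gp2-negative replicate 2 or 3 or either Gp2-positive array. Median scaling, each sort normalized alone, no detection filter, array weights, each sort fitted alone and the replicate block also lost it (adjusted p up to 0.24). With the mean of the probes of H2-Ab1 the difference was -0.94. The Cd74 representative passed in no sort of the main fit. In the Ins2 sort both representatives were called higher under median scaling and with the authors' values. Over the alternatives their differences there reached 0.45 (H2-Ab1) and 0.51 (Cd74). The Cd74 representative was called lower in the Gp2 sort without background correction and with the authors' values.

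The other probes of both genes were called in more sorts than the representatives. The dimmest Cd74 probe, at ranks 123 to 1230, gave 12.91, 12.95 and 12.80 on the Tspan8-negative and 11.02, 10.82 and 10.81 on the Tspan8-positive arrays. In the Gp2 sort it gave 12.82, 12.99 and 12.93 in negative and 11.10 and 11.43 in positive cells. Positive and negative arrays were more than 1 log2 unit apart in both sorts. Tested probe by probe, it fell by 2.00 in the Tspan8 sort (adjusted p = 7e-18), 1.65 in the Gp2 sort (4e-14), 0.89 in the Pdpn sort (8.1e-09) and 0.62 in the Cea1 sort (1.1e-05). It rose by 0.55 in the Gad1 sort (4.7e-05) and did not pass in the Ins2 sort (-0.13, adjusted p = 0.46). The other bright Cd74 probe, at ranks 1 to 36, fell by 0.35 in the Gp2 sort and 0.38 in the Tspan8 sort.

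The second H2-Ab1 probe held ranks 1 to 178 of its array and the third ranks 18 to 203. The second fell by 0.78 in the Pdpn, 1.53 in the Gp2, 0.49 in the Cea1, 0.73 in the Ins2 and 1.06 in the Tspan8 sort. It rose by 0.49 in the Gad1 sort. The third fell by 0.42, 1.02 and 0.83 in the Pdpn, Gp2 and Tspan8 sorts, rose by 0.41 in the Gad1 sort, and stood at -0.15 and 0.20 without a call in the Cea1 and Ins2 sorts. In the Ins2 sort the 3 probes of H2-Ab1 thus did not move alike (0.12, -0.73 and 0.20). With the mean of a gene's probes in place of the brightest, H2-Ab1 and Cd74 were lower in the Pdpn sort (-0.40 and -0.28) and Cd74 was higher in the Gad1 sort (0.17). Whether the probes of these genes reach different transcripts was not tested.

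**Figure D3:**
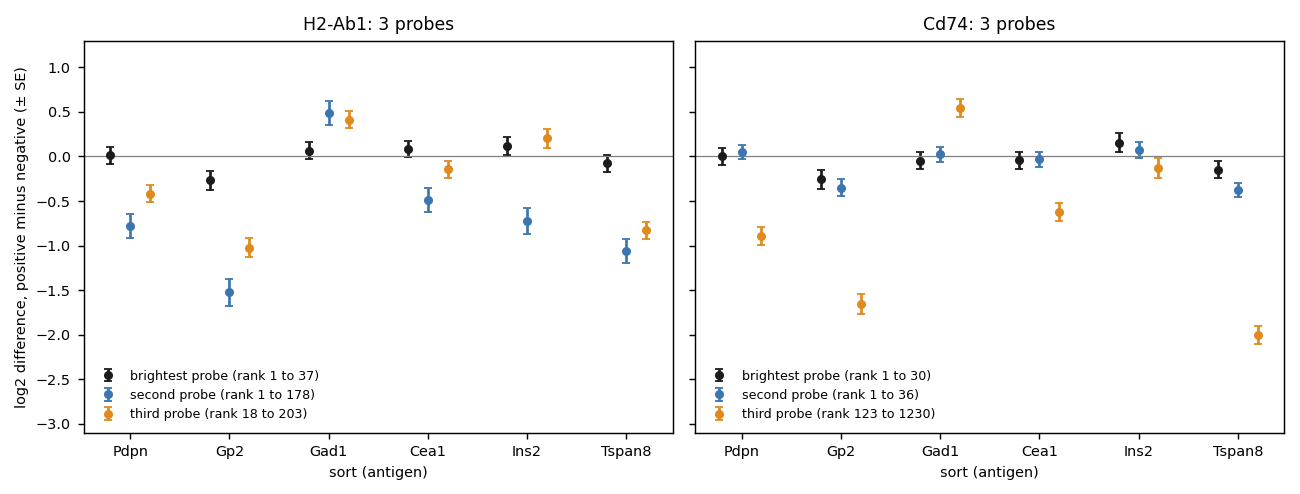
Log2 difference, positive minus negative cells, with the SE of the limma fit as bars, for the 3 probes of H2-Ab1 (left) and of Cd74 (right) in the 6 sorts; the legends give each probe's range of ranks on the arrays. The brightest probes stay between -0.27 and 0.16, whereas the dimmest Cd74 probe runs from -2.00 in the Tspan8 sort to 0.55 in the Gad1 sort.

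Over all 16 probes, 15 fell in the Gp2 sort (33.2% of all probes were called in either direction), 13 in the Tspan8 sort (34.8%), 10 in the Pdpn sort (31.1%) and 10 in the Cea1 sort (23.3%), and none rose. In the Gad1 sort 9 probes rose and 1, that of Ciita, fell (30.6%). Probes that do not represent their gene were not tested under median scaling. In the Ins2 sort 1 rose and 4 fell (27.9%).

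Both chains of H2-DM, which loads peptides, fell in the Gp2, Cea1 and Tspan8 sorts. H2-DMa stood at 11.72, 11.68 and 11.68 on the Tspan8-negative and at 10.14, 10.00 and 9.82 on the Tspan8-positive arrays. It stood at 11.44, 11.35 and 11.44 in Gp2-negative and at 10.56 and 10.87 in Gp2-positive cells. The Tspan8-positive arrays were the lowest of all 34. The fall was 3.27-fold in the Tspan8 sort (95% interval 2.82 to 3.78, adjusted p = 1.4e-15), 1.62-fold in the Gp2 sort (1.38 to 1.91, adjusted p = 7.9e-06) and 1.58-fold in the Cea1 sort (1.36 to 1.82, adjusted p = 6.6e-06). H2-DMa also fell by 0.38 in the Ins2 sort (adjusted p = 0.0092), a call lost without Ins2-negative replicate 1 (-0.28, adjusted p = 0.16), and it did not pass in the Pdpn sort (-0.24, adjusted p = 0.071). Without Pdpn-positive replicate 3 it did (-0.34, adjusted p = 0.018).

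In Gad1-positive cells H2-DMa rose by 0.32 (adjusted p = 0.014), from 11.27, 11.40 and 11.21 to 11.61, 11.75 and 11.46. The rise was no longer called on leaving out Gad1-negative replicate 3 (adjusted p = 0.064) or Gad1-positive replicate 2 (0.096), and under median scaling (0.03, adjusted p = 0.9). A second H2-DMa probe had the same sign in all 6 sorts, between -1.84 in the Tspan8 sort and 0.45 in the Gad1 sort.

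H2-DMb1 stood at 11.68, 11.60 and 11.79 on the Gp2-negative and at 10.18 and 10.63 on the Gp2-positive arrays. In the Tspan8 sort it went from 11.55, 11.33 and 11.42 to 10.21, 10.29 and 10.21. The fall was 2.43-fold in the Gp2 sort (adjusted p = 4.8e-11), 2.29-fold in the Tspan8 sort (1.1e-11), 1.48-fold in the Cea1 sort (7.3e-05) and 1.43-fold in the Pdpn sort (0.00014). In the Gad1 and Ins2 sorts the difference was 0.14 (95% interval -0.07 to 0.35) and -0.01 (-0.25 to 0.23). H2-DMb2, its near-identical neighbour, fell in 5 sorts and rose in the Gad1 sort; whether the probes of the pair take up each other's transcript was not tested.

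H2-DO, the restraint on H2-DM, fell in 4 sorts, and its beta chain gene held the largest difference of the 60. H2-Ob, that gene, stood at 9.56, 9.49 and 9.51 on the Gp2-negative and at 7.08 and 6.62 on the Gp2-positive arrays. In the Pdpn sort it went from 9.92, 9.89 and 10.10 to 8.35, 7.99 and 7.71. In the Tspan8 sort it went from 9.60, 9.59 and 9.40 to 7.63, 7.85 and 7.37. All positive arrays of these 3 sorts lay more than 1 log2 unit below the negative ones. H2-Ob was lower 6.37-fold in Gp2-positive (95% interval 4.89 to 8.31, adjusted p = 1.1e-13), 3.88-fold in Pdpn-positive (3.07 to 4.92, adjusted p = 2.2e-11) and 3.76-fold in Tspan8-positive cells (2.96 to 4.76, adjusted p = 1.2e-11). The log2 difference of -2.67 in the Gp2 sort was -2.03 without background correction and -2.02 with the authors' values, called both times. In the Cea1 sort H2-Ob fell 1.51-fold (1.19 to 1.91, adjusted p = 0.0069).

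In Gad1-positive cells H2-Ob rose 1.71-fold (95% interval 1.35 to 2.17, adjusted p = 0.00031), from 9.34, 9.31 and 9.01 to 9.90, 10.13 and 9.96. All Gad1-positive arrays lay above all Gad1-negative ones, and the call held under every alternative tried, with 0.57 under median scaling as the smallest difference. On the Ins2 arrays H2-Ob overlapped (9.64 and 9.27 against 9.06, 9.91 and 9.20), and the difference was -0.07 (95% interval -0.45 to 0.31).

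H2-Oa, the alpha chain of H2-DO, ran beside H2-Ob. It went from 12.59, 12.71 and 12.66 to 11.50, 11.27 and 11.08 in the Pdpn sort, and from 12.61, 12.70 and 12.75 to 11.09, 10.83 and 10.70 in the Tspan8 sort. In the Gp2 sort it went from 11.97, 12.35 and 12.33 to 10.39 and 10.89. Positive cells lay below negative cells in all 3 sorts, by 2.58-fold, 3.51-fold and 2.98-fold in the order given (adjusted p = 3.9e-11, 1.4e-14 and 1.2e-11). In the Cea1 sort H2-Oa fell 1.52-fold (adjusted p = 0.00019). In the Gad1 sort it rose by 0.45 (adjusted p = 0.0033), but the difference was -0.02 under median scaling (adjusted p = 0.92). A second H2-Oa probe gave -1.90, -2.09, 0.58, -0.77, -0.32 and -2.26 in the Pdpn, Gp2, Gad1, Cea1, Ins2 and Tspan8 sorts, called in all but the Ins2 sort. There the brightest H2-Oa probe had the opposite sign, also without a call (0.29, 95% interval 0.02 to 0.57, adjusted p = 0.092).

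Ctss, the protease that trims the invariant chain in many antigen-presenting cells, fell most in the Gp2 sort. Its log2 signal was 8.28, 7.43 and 7.37 on the Gp2-negative and 6.16 and 5.28 on the Gp2-positive arrays. Gp2-negative replicate 1 was the highest of all 34 arrays and Gp2-positive replicate 2 the lowest. The fall was 3.94-fold (95% interval 2.71 to 5.71, adjusted p = 1.6e-07), a log2 difference of -1.98 that was -1.09 without background correction and -1.13 with the authors' values, called both times. A fall of 0.59 in the Gad1 sort (adjusted p = 0.047) did not hold: it was lost without any of 4 arrays (Gad1-negative replicates 1 and 2, Gad1-positive replicates 1 and 2; adjusted p 0.075 to 0.23) and under 8 other settings. In the Tspan8 sort the difference of -0.54 had an adjusted p of 0.066, and 0.033 with the replicate number as a block. In the Pdpn, Cea1 and Ins2 sorts the differences were 0.03, -0.06 and -0.45 without a call.

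Ciita fell in 5 of the 6 sorts, more sorts than any other of the 10 genes. It stood at 10.54, 10.53 and 10.64 on the Tspan8-negative and at 8.49, 8.45 and 8.40 on the Tspan8-positive arrays. In the Gp2 sort it went from 10.18, 10.21 and 10.22 to 9.03 and 8.89, and in the Cea1 sort from 10.28, 10.27 and 10.50 to 9.35, 9.26 and 9.12. Positive and negative arrays did not overlap in any of the 6 sorts, beside 37.7% to 55.9% of all genes in a single sort. The fall was 4.36-fold in the Tspan8 sort (95% interval 3.82 to 4.98, adjusted p = 6e-19), 2.37-fold in the Gp2 sort (2.04 to 2.75, adjusted p = 1e-11) and 2.16-fold in the Cea1 sort (1.89 to 2.47, adjusted p = 2.5e-11).

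In both reporter sorts Ciita fell while none of the class II chain genes fell by its brightest probe. In the Gad1 sort it went from 11.06, 11.10 and 10.90 to 10.10, 10.17 and 10.08, a fall of 1.87-fold (1.64 to 2.14, adjusted p = 1.3e-09), in the same cells in which H2-Ob rose. In the Ins2 sort it went from 10.55 and 10.63 to 10.03, 10.01 and 9.88, a fall of 1.53-fold (1.32 to 1.78, adjusted p = 1.8e-05). In the Pdpn sort, where H2-Ob fell 3.88-fold, Ciita did not pass (10.07, 10.34 and 10.17 against 10.01, 10.06 and 9.92; -0.19, 95% interval -0.39 to -0.00, adjusted p = 0.11).

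**Figure D4:**
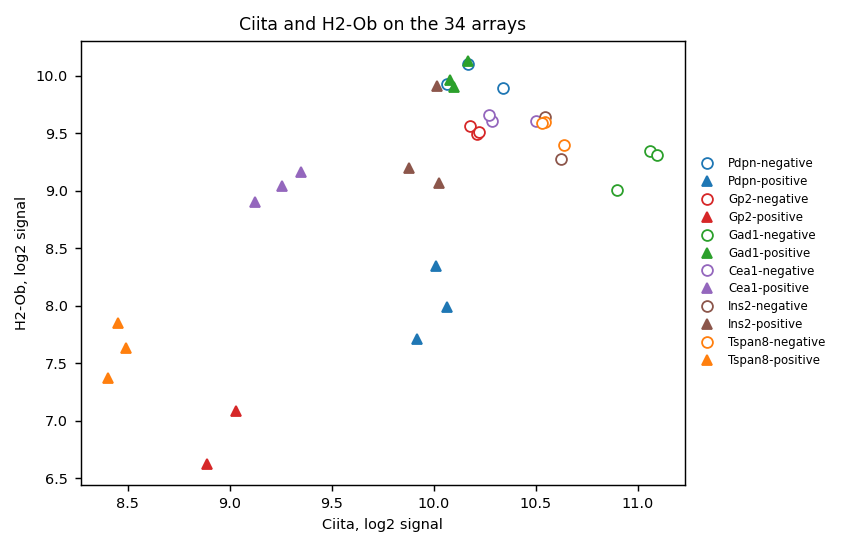
Normalized log2 signal of H2-Ob (vertical axis) against that of Ciita (horizontal axis) on the 34 arrays, with a colour for each sort, open circles for negative and filled triangles for positive cells. The Pdpn-positive arrays lie low in H2-Ob at a Ciita signal of 9.92 to 10.06, at which the Gad1-positive arrays (10.08 to 10.17) lie high in H2-Ob.

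The differences varied among the 6 sorts for 8 of the 10 genes by the F test, beside 61.5% of all genes. H2-Ab1 (adjusted p = 0.15) and Cd74 (0.23), both represented by a top-ranked probe, did not pass. The sorts were then compared pair by pair in the same fit, with p adjusted over all genes for each of the 15 pairs. The share of all genes called was 21.6% for Pdpn against Gp2, 44.7% for Pdpn against Gad1, 29.1% for Pdpn against Cea1, 32.8% for Pdpn against Ins2 and 30.5% for Pdpn against Tspan8. It was 44.5%, 30.9%, 35.5% and 32.4% for Gp2 against Gad1, Cea1, Ins2 and Tspan8, and 22.2%, 19.3% and 33.3% for Gad1 against Cea1, Ins2 and Tspan8. It was 9.81% for Cea1 against Ins2, 15% for Cea1 against Tspan8 and 17.1% for Ins2 against Tspan8. H2-Ob differed in 13 pairs, H2-Oa and H2-DMb1 in 12 each, and H2-Eb1, H2-DMa and Ciita in 11 each. The Gad1 and Gp2 effects on H2-Ob lay 3.45 apart on the log2 scale (adjusted p = 2.3e-13; 44.5% of all genes called), whereas those on Ciita lay 0.34 apart (adjusted p = 0.051). The Pdpn and Tspan8 effects on H2-Ob did not differ by test (-0.05, adjusted p = 0.92), but those on Ciita lay 1.93 apart (adjusted p = 1.2e-13; 30.5% of all genes called) and those on H2-DMa 1.47 apart (5.4e-10). The Gp2 and Tspan8 effects did not differ by test for H2-Aa (0.00), H2-Eb1 (-0.22) or H2-DMb1 (-0.09), and differed for Ciita (0.88, adjusted p = 5.4e-06), H2-DMa (1.01, 2.6e-06) and Ctss (-1.44, 0.0015), beside 32.4% of all genes.

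Ordered by group mean, H2-Ob was highest in Gad1-positive (10.00 ± 0.12, SD, n = 3) and Pdpn-negative cells (9.97 ± 0.11, n = 3), whose arrays overlapped. Cea1-negative (9.63 ± 0.03), Tspan8-negative (9.53 ± 0.11), Gp2-negative (9.52 ± 0.04), Ins2-negative (9.46 ± 0.26, n = 2), Ins2-positive (9.39 ± 0.45), Gad1-negative (9.22 ± 0.18) and Cea1-positive cells (9.03 ± 0.13) followed. From Tspan8-negative to Cea1-positive cells each group overlapped the next. Pdpn-positive (8.01 ± 0.32) and Tspan8-positive cells (7.62 ± 0.24) overlapped each other, and Gp2-positive cells were lowest (6.85 ± 0.33, n = 2).

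Ciita was highest in Gad1-negative cells (11.02 ± 0.10), followed by Ins2-negative (10.59 ± 0.06, n = 2) and Tspan8-negative cells (10.57 ± 0.06), which overlapped. Cea1-negative (10.35 ± 0.13), Gp2-negative (10.20 ± 0.02), Pdpn-negative (10.19 ± 0.14), Gad1-positive (10.12 ± 0.05), Pdpn-positive (10.00 ± 0.07) and Ins2-positive cells (9.97 ± 0.08) came next. Cea1-positive (9.24 ± 0.11), Gp2-positive (8.96 ± 0.10, n = 2) and Tspan8-positive cells (8.45 ± 0.04) stood apart below them without overlap. Levels set side by side across sorts also compare different antibodies and reporter mice. The lowest and highest group means were 12.14 and 13.38 for H2-Aa, 12.98 and 14.41 for H2-Eb1, 9.99 and 11.69 for H2-DMa, 10.24 and 11.69 for H2-DMb1, 10.64 and 12.82 for H2-Oa, and 5.62 and 7.69 for Ctss. Gp2- or Tspan8-positive cells held the lowest mean of every gene but Ctss, for which Gad1-positive cells did.

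Across the 12 group means the members ran together to different degrees, from a Pearson r of 0.97 between H2-Oa and H2-Ob to -0.03 between H2-Ab1 and Ctss (median of 45 pairs 0.65). Ciita stood nearest to H2-DMa (r = 0.88) and H2-DMb1 (0.81). These are descriptions over 12 means of the same arrays, which fall into low and high groups, with no test. Tested genes other than the members and those with provisional names were ranked by likeness to the mean standardised profile of the 10. Most like it were Ogfrl1 (r = 0.988), the transcription factor Irf4 (0.965), Aire (0.963), the nicotinic receptor subunit Chrna4 (0.959) and Oaz3 (0.957). Heg1 (-0.939) and the kinase Prkch (-0.938) were least like that profile. Aire itself fell in all sorts but the Gad1 sort, by 1.32, 2.26, 0.96, 0.47 and 2.76 on the log2 scale in the Pdpn, Gp2, Cea1, Ins2 and Tspan8 sorts, and Cd80, a costimulatory ligand of mature mTECs, fell in 4 (Pdpn -1.45, Gp2 -2.54, Cea1 -0.81, Tspan8 -1.59).

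Other genes of the class II pathway were taken from a list of 35, of which 33 were measured. Counts higher and lower were 11 and 7 in the Pdpn, 10 and 10 in the Gp2, 7 and 8 in the Gad1, 1 and 8 in the Cea1, 7 and 8 in the Ins2 and 6 and 12 in the Tspan8 sort. Of all genes, 18.2% were higher and 19.1% lower in the Pdpn, 18% and 21% in the Gp2 and 19.2% each way in the Gad1 sort. These shares were 13.4% and 15.6% in the Cea1, 16.8% and 17.7% in the Ins2 and 19.1% and 23.9% in the Tspan8 sort. The medians of the 33 genes lay between -0.14 and 0.11, against -0.04 to 0.00 over all genes. Under median scaling no listed gene was higher in the Gad1 sort.

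Among the pathway genes, the further beta chain gene H2-Eb2, whose promoter also held both sets of letters, fell in all sorts but the Gad1 sort, by 1.75 (Pdpn), 3.15 (Gp2), 1.14 (Cea1), 1.57 (Ins2) and 2.44 (Tspan8). Ifi30, a thiol reductase of the endosome that opens disulfide bonds of antigens, fell in the same 5 sorts (-0.88, -2.30, -0.91, -1.32 and -1.54). Irf4 fell by 0.67, 2.15, 0.74 and 2.16 in the Pdpn, Gp2, Cea1 and Tspan8 sorts. Rfxap, a subunit of RFX, rose in the Pdpn (0.48) and Gp2 sorts (0.55) and fell in the other 4 (-0.61 Gad1, -0.41 Cea1, -0.44 Ins2, -0.47 Tspan8); Rfx5 was not detected widely enough to be tested. Nfyb, a subunit of NF-Y, had calls of the same signs, with 1.32 in the Gp2 sort and -0.75 in the Gad1 sort.

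The proteases named by the rule moved in different directions. Ctsl, cathepsin L, which trims the invariant chain in cortical thymic epithelium, rose by 4.28 in the Gp2 and 1.67 in the Pdpn sort and fell by 1.32 in the Ins2 sort. Prss16, a thymus protease of the cortex, rose by 6.06 in the Gp2 and 1.49 in the Pdpn sort. Ctsb, cathepsin B, rose in the Pdpn (0.56), Gad1 (0.35), Cea1 (0.77) and Tspan8 sorts (0.86) and fell in the Gp2 sort (-0.40). Jak1, a kinase of the interferon receptors, fell in all sorts but the Cea1 sort, most in the Tspan8 sort (-1.38). In the Gad1 sort Ctsh (0.56), Ap1m1 (-0.62), Rfxap and Nfyb had the smallest adjusted p. Marchf1, a ligase that takes class II molecules from the surface, passed in no sort.

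**Figure D5:**
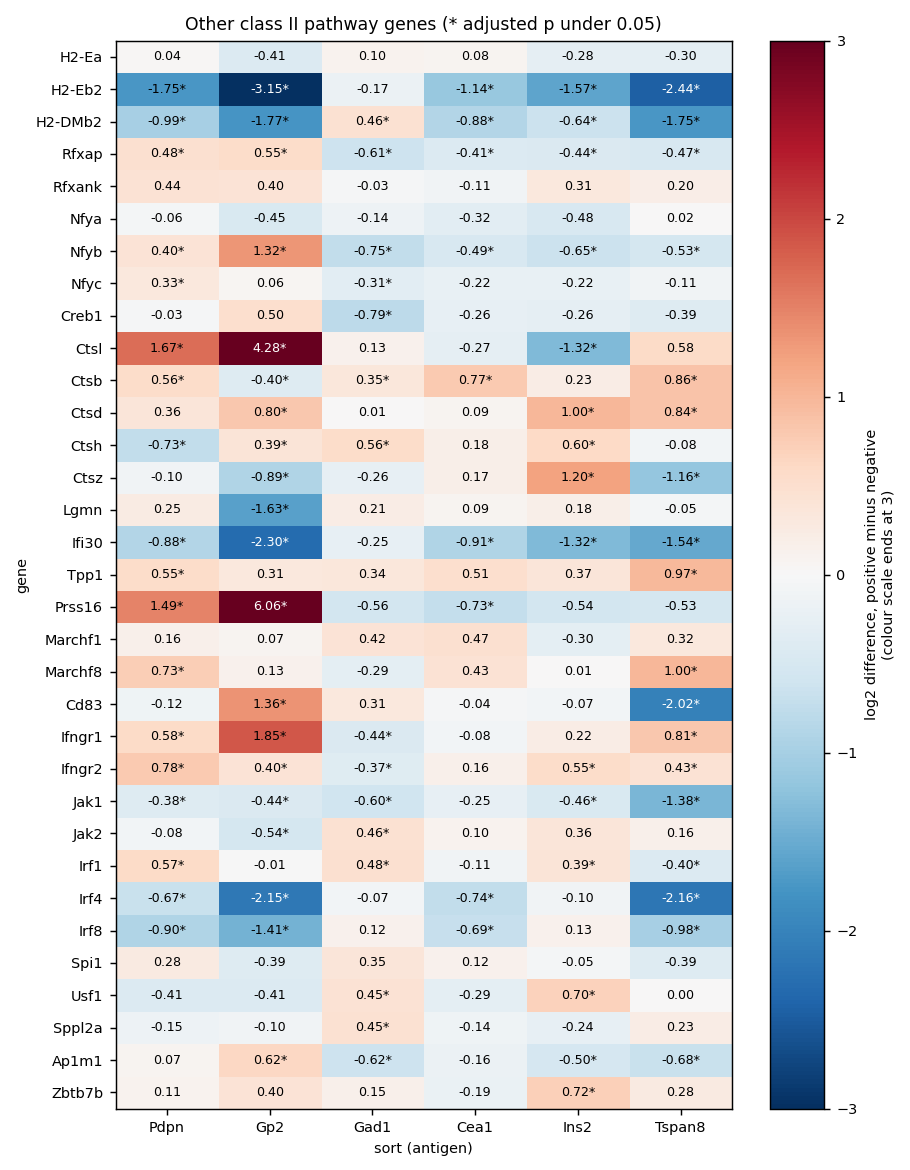
Log2 difference, positive minus negative cells, of 33 other genes of the class II pathway (rows) in the 6 sorts (columns), with a star where the adjusted p was under 0.05 and a colour scale that ends at 3. H2-Eb2 and Ifi30 are lower in all columns but Gad1, and Ctsl (4.28) and Prss16 (6.06) are the strongest red cells, in the Gp2 column.

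The class II region of chromosome 17 also holds genes of the class I pathway. In the order of GRCm38.p6 it runs H2-Oa, Brd2, H2-DMa, H2-DMb2, H2-DMb1, Psmb9, Tap1, Psmb8, Tap2, H2-Ob, Gm20506, H2-Ab1, H2-Aa and H2-Eb1, with 6 of the 7 genes that are no members measured. Tap2, a subunit of the peptide transporter of class I loading, stands beside H2-Ob and rose in all 6 sorts, by 0.67 (Pdpn), 1.20 (Gp2), 0.96 (Gad1), 0.63 (Cea1), 1.41 (Ins2) and 1.16 (Tspan8). Tap1, its partner, rose in all but the Cea1 sort, by 0.42 to 0.79. Psmb8, a subunit of the immunoproteasome, rose by 1.71 in the Gad1 sort and fell in the Pdpn (-0.86), Gp2 (-0.64), Ins2 (-0.96) and Tspan8 sorts (-0.61). H2-DMb2, beside H2-DMb1, gave -0.99, -1.77, 0.46, -0.88, -0.64 and -1.75 in the order Pdpn, Gp2, Gad1, Cea1, Ins2 and Tspan8, all called.

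The cell type labelled was checked against markers. The keratins Krt5, Krt8 and Krt14 and Aire were detected on all 34 arrays, whereas the probe of the epithelial adhesion gene Epcam was detected on 14. Antigen-presenting leukocytes also express class II genes. The B cell genes Cd79a and Pax5 were not detected widely enough to be tested, the dendritic cell gene Itgax was detected on 4 arrays and the leukocyte gene Ptprc on 8, and the macrophage gene Csf1r on all 34.

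Marker lists of other cells were counted in the same comparisons, to be read against the shares of all genes called in each sort. In the Gad1 sort 4 of 9 macrophage genes were higher. The summed linear signal of that list was 1635 to 2405 in negative and 4129 to 5972 in positive cells. Of the B cell genes 3 of 4 were higher (654 to 737 against 1124 to 1141). Of 9 dendritic cell genes 1 was higher (559 to 1064 against 657 to 838), with a list median of -0.08. In the Gp2 sort 5 of 9 macrophage genes were lower (3118 to 3508 against 1256 to 1488), 2 of 4 B cell genes were lower (747 to 870 against 430 to 557) and 3 of 9 dendritic cell genes were lower and 1 higher (819 to 1449 against 585 to 671). All 11 thymocyte genes were higher there (1201 to 3981 against 16990 to 22243), as were all 7 cortical epithelial genes (6657 to 7880 against 24447 to 32786). In the Tspan8 sort 3 of 9 macrophage genes were lower and 2 higher (2546 to 3192 against 1423 to 1679, list median 0.15), 2 of 4 B cell genes were lower (825 to 857 against 474 to 515), and 3 of 9 dendritic cell genes were lower and 1 higher (783 to 908 against 520 to 588). In the Pdpn sort 2 of 9 macrophage genes were lower and 2 higher (3129 to 3676 against 1086 to 2340, list median 0.16), 3 of 4 B cell genes were lower (906 to 1042 against 315 to 464), 2 of 9 dendritic cell genes were lower and 1 higher (770 to 896 against 565 to 785), and 5 of 6 fibroblast genes were higher. In the Cea1 sort 3 of 9 macrophage genes were higher (2827 to 3486 against 3108 to 4218) and in the Ins2 sort 1 was higher and 1 lower (2151 to 3065 against 1518 to 1668), while 1 of 4 B cell genes was higher in the Cea1 and 2 in the Ins2 sort. The 7 genes of mTEC maturation, Aire and Cd80 among them, had 4, 6, 0, 4, 2 and 5 lower calls in the Pdpn, Gp2, Gad1, Cea1, Ins2 and Tspan8 sorts. In the same order the maturation genes had 2, 1, 2, 0, 2 and 0 higher calls. The part of these cells in the class II differences was not tested.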

How the data were processed

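The unnormalized table deposited by the authors holds bead intensity and a detection p-value for each of 46089 probes, with no background subtraction visible in the values, per the file headers and the values themselves. A second deposited table holds the authors' normalized intensity values; their normalization is not given in the sources used here. The column labelled Ins2-negative replicate 2 in the unnormalized table holds the detection p-values of another array, so 34 of 35 arrays were used. No column of other samples was present (0). The tables share no probe name, so all 46089 probes were linked by their values over the arrays: Spearman's rho on the array kept out of the link was 0.989. Of the probes, 35667 had 1 gene symbol and 10422 none.

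The deposited intensity values were background corrected with limma's neqc (offset 16), quantile normalized and brought to log2 here. A probe entered the fit if 2 or more arrays of any 1 group detected it at p under 0.05, and the brightest kept probe stood for its gene. A limma fit (lmFit and eBayes with trend) over all 12 groups gave each positive-minus-negative difference, with Benjamini-Hochberg adjustment over 18090 genes within each sort. Probes were tested in the same way over 34083. The F test and the 15 pairs of sorts used the same fit. Its positive-minus-negative calls were also tried on simulated data drawn with the fitted spread. The F test and the pairs were not tried in this way. R 4.3.3, limma 3.58.1, Python 3.11.15, NumPy 2.4.6, SciPy 1.17.1 and Matplotlib 3.10.9 were used. Between 47.1% and 60.8% of probes were detected per array, and replicates correlated at 0.977 to 0.993.

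The members and gene lists were chosen with earlier results of these data known. The text names all members, up to 4 pathway and 3 region genes per sort by smallest adjusted p, Ctsl, Rfx5, Ifi30 and Marchf1 in any case, 5 genes most and 2 least like the members' profile, and defining cell markers. In the Pdpn sort, same-numbered arrays deviated together (r 0.156 to 0.205 in 3 pairs), so its numbers may pair the samples. The main fit did not use this pairing, and the block changed no call of a member there. Same-numbered pairs gave r of 0.106 to 0.229 in the Gp2 sort (2 pairs) and 0.081 to 0.212 in the Cea1 sort (3 pairs). In the Tspan8 sort they gave 0.068 to 0.085 (3 pairs). Numbers may pair the samples in these sorts too. Alternatives covered background correction, normalization, filters, probe choice, weights, the replicate block and leaving out each array.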

Additional observations from a re-analysis of the deposited data

Results flagged for a closer look

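The positive-minus-negative differences of 8 genes differed among the 6 sorts by limma's F test, adjusted over all genes, of which 61.5% passed. The adjusted p was 4.2e-14 for H2-Oa, whose log2 difference ran from -1.81 (Tspan8) to 0.45 (Gad1). It was 8.7e-14 for H2-Ob (-2.67 in the Gp2 to 0.78 in the Gad1 sort) and 9.7e-13 for Ciita (-2.12 in the Tspan8 to -0.19 in the Pdpn sort). For H2-DMa it was 4.2e-12 (-1.71 in the Tspan8 to 0.32 in the Gad1 sort) and for H2-Eb1 2.3e-11 (-1.23 in the Gp2 to 0.25 in the Gad1 sort). For H2-DMb1 it was 4.3e-10 (-1.28 in the Gp2 to 0.14 in the Gad1 sort), for H2-Aa 2.4e-06 (-0.72 in the Tspan8 to 0.51 in the Ins2 sort) and for Ctss 0.00015 (-1.98 in the Gp2 to 0.03 in the Pdpn sort).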

How the results depend on the processing

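Of 660 comparisons of a member's difference with that under another setting, 596 kept direction and side of the threshold, 23 gained and 21 lost the call, and 5 changed sign with a call under at least 1 of the settings compared. Another 15 changed sign without a call under either (values from -0.24 to 0.11). Leaving out 1 array gave 297 that kept both, 17 that changed sign without a call (-0.14 to 0.14), 3 gained and 23 lost. The 5 were H2-Eb1 (-0.22) and H2-Oa (-0.021) in the Gad1 sort under median scaling, and, with the mean of the gene's probes, H2-Ab1 (-0.40) and Cd74 (-0.28) in the Pdpn sort and Cd74 in the Gad1 sort (0.17). In the Gad1 sort 1 member was lower without background correction, with each sort normalized alone, with the authors' values, without the detection filter, with array weights, with each sort fitted alone and with every probe tested. Under median scaling 1 was higher there, and H2-Aa (-0.45) and Cd74 (-0.36) gained a lower call. In the Ins2 sort 2 members (H2-Ab1 and Cd74) were higher under median scaling. With the authors' values 4 were higher there (H2-Aa, H2-Ab1, H2-Oa and Cd74), and with each sort fitted alone 1 was lower. In the Pdpn sort 8 were lower with the mean of probes. The causes were not tested. Leaving out 1 array at a time gave 4 to 6 members lower in the Pdpn, 8 to 10 in the Gp2, 5 to 6 in the Cea1 and 7 to 7 in the Tspan8 sort; 2 to 3 higher and 1 to 2 lower in the Gad1 sort; and 0 to 2 higher and 1 to 2 lower in the Ins2 sort, with 8 to 9 members varying among sorts. Without Gad1-negative replicate 1 or 2, or Gad1-positive replicate 1 or 2, 1 member was lower, and without Gad1-positive replicate 2, 2 were higher. Without Ins2-negative replicate 1 none (0) was higher and 1 lower, and without Ins2-negative replicate 3, 2 were higher; the array left is then assumed to vary like the other groups. With the replicate block, 8 members were lower in the Gp2 sort (H2-Ab1 lost, -0.23) and 8 in the Tspan8 sort (Ctss gained, adjusted p = 0.033), and no other member count changed. Outside the Pdpn sort, 8 of 13 same-numbered pairs correlated at 0.1 or below, which does not settle whether they are paired. Median scaling moved the median of all genes to 0.12 (Pdpn), -0.18 (Gad1) and 0.14 (Tspan8), and the share of higher calls from 49.9% to 39.3% in the Gad1 and from 44.5% to 55.7% in the Tspan8 sort. A slide block was not run, since the headers name no slide. Under quantile normalization the brightest probes of H2-Ab1 and Cd74 stood near the highest possible value. Whether this limited their differences was not tested.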
